A study of Mus musculus with 27 samples.

Results

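The genes of the 4 opioid-type receptors and of the nociceptin precursor were followed in the brain of mice with and without an enhancer of Igf2. Members were the rows of the gene count tables whose Ensembl identifier belongs to Oprm1, Oprd1, Oprk1, Oprl1 or Pnoc, which gave 5 of 52636 gene rows, and all 5 were present in both brain regions. Total RNA was sequenced from frontal cortex and striatum of adult mice of about 2.5 months on the 129S1 background. Wild-type mice carried both copies of the intergenic enhancer between H19 and Igf2. Igf2enh-/- mice were homozygous for its deletion, made by gene targeting in embryonic stem cells, and kept a single loxP site after the selection cassette had been removed with Hprt-CRE. The deletion was constitutive and so was not limited to a brain region or cell type. Frontal cortex gave 6 wild-type and 6 Igf2enh-/- libraries, with 3 females and 3 males each. Striatum gave 7 wild-type libraries (3 females, 4 males) and 8 Igf2enh-/- libraries (4 females, 4 males). The labels did not tie a cortex library to a striatum library of the same mouse, so the 27 libraries were treated as independent.

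Opioid receptors are receptors of the cell surface that couple to inhibitory G proteins, lower cyclic AMP, open inwardly rectifying potassium channels and close presynaptic calcium channels. Oprm1 encodes the mu receptor, the main target of morphine; Oprd1 encodes the delta receptor, for which enkephalins have high affinity; Oprk1 encodes the kappa receptor, the receptor of dynorphins. Oprl1 encodes the nociceptin receptor, which resembles the other 3 in sequence but binds the classical opioid peptides poorly, and Pnoc encodes the precursor from which its ligand nociceptin is cut. In the striatum, enkephalin and dynorphin are made by the medium spiny neurons, the projection cells that form most of its neurons. Kappa receptors are known from the dopamine endings there.

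In the RefSeq annotation of GRCm38.p6, Oprm1 (ENSMUSG00000000766) lies at chr10:6758593-7038209 on the plus strand and Oprd1 (ENSMUSG00000050511) at chr4:132110188-132144486 on the minus strand. Oprk1 (ENSMUSG00000025905) lies at chr1:5588450-5606134, Oprl1 (ENSMUSG00000027584) at chr2:181715000-181720985 on the plus strand, and Pnoc (ENSMUSG00000045731) at chr14:65400673-65425564. Oprm1 shares 152431 bases of its span with Ipcef1, a gene on the opposite strand, and in the older vM1 annotation the exons of the pair shared 96 bases. Whether reads were counted by strand is not given in the sources used here, so reads in those 96 bases cannot be assigned to either gene with certainty. The RefSeq promoter table (GRCm38.p6, windows of 300 bases from 250 before to 50 after a transcript start) held 7 entries for Oprm1, Oprd1 and Oprl1. Oprk1 and Pnoc had no entry. The first entry of each is shown so that the start regions of the receptor genes described here can be compared. Capitals mark a GC box (GGGCGG) or a TATA box (TATAAA) on either strand, and sequences run 5′ to 3′ along the gene.
Oprm1: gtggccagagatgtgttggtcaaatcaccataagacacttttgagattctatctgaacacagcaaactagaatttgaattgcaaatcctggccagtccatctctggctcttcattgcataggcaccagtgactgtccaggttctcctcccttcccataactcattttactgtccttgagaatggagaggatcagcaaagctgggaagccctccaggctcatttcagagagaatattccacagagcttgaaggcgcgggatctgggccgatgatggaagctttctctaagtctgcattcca
Oprd1: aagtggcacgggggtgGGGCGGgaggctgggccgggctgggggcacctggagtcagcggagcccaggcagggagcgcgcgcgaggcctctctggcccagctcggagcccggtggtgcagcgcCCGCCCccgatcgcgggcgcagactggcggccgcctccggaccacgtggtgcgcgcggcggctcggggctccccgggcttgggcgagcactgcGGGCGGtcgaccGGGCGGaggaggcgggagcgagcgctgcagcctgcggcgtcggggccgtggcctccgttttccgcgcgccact
Oprl1: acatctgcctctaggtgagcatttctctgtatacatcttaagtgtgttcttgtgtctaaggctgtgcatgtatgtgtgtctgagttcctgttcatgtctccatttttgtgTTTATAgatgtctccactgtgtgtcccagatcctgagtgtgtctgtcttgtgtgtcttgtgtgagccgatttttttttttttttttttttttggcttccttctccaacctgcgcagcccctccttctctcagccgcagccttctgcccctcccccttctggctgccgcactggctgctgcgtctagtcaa
The Oprd1 window (chr4:132144437-132144736, minus strand) was 79.3% G and C, held 43 CpG dinucleotides and had 4 GC boxes, a motif found in 35.7% of all 32851 promoter windows. The Oprl1 window (chr2:181714766-181715065, plus strand) was 47.7% G and C, held 5 CpG dinucleotides and had 1 TATA box on the reverse strand, a motif found in 13.6% of windows. The Oprm1 window (chr10:6758343-6758642, plus strand) was 47.3% G and C with 3 CpG dinucleotides and matched neither motif. The other entries of Oprm1 lie further along the gene, at chr10:6788320-6788619 and chr10:6788326-6788625 (52.0 and 52.3% G and C). They and the other entries of Oprl1 (53.7 and 49.7%) are not shown and matched neither motif. The median over all windows was 52.7% G and C and 7 CpG dinucleotides. No entry of the 3 genes held the cyclic AMP response element TGACGTCA, which 1.79% of windows held. A match is a description of the letters in the window and says nothing of binding.

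Libraries held 23686945 to 33926904 counts in all. Levels are given as CPM, that is, counts scaled to a common library total with TMM factors, which correct for composition. Markers of the labelled tissues separated the regions. The summed level of 10 medium spiny neuron markers was 346 to 414 CPM in frontal cortex and 4597 to 12681 CPM in striatum, and the sum of 8 cortical projection neuron markers was 2322 to 2561 CPM in frontal cortex and 68.2 to 1174 CPM in striatum. None of these 18 markers was at 0 in either region as a whole. Striatum libraries 19, 20, 23 and 26, all from males, had the 4 lowest medium spiny neuron sums (4597 to 7287 CPM, against 8965 to 12681 CPM in the other 11), and their cortical marker sums were 600 to 1174 CPM, against 68.2 to 834 CPM. The tests of the 5 genes that hold striatum libraries, and their striatum levels and shares per kilobase, were therefore also computed without these 4 libraries, a choice made after the data had been seen. Striatum library 15 had a choroid plexus marker sum of 3371 CPM. In frontal cortex Igf2 was 52.1 to 108 CPM in wild-type and 88.5 to 173 CPM in Igf2enh-/- libraries (log2 fold change 0.77, SE 0.134, adjusted p = 0.0285, edgeR quasi-likelihood test), with a meningeal fibroblast marker sum of 43.8 to 108 and 67.3 to 124 CPM. In striatum Igf2 was 33.8 to 44.0 CPM in wild-type (median 36.9) and 46.0 to 259 CPM in Igf2enh-/- libraries (median 51.6). Every Igf2enh-/- striatum library thus lay above every wild-type one, although Igf2 did not pass the edgeR quasi-likelihood test there (log2 fold change 0.89, adjusted p = 0.386). The deleted enhancer lies outside the counted genes, so these values do not check the deletion itself.

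The first question was where each gene was expressed. Kappa receptor RNA was the most regional of the 5: Oprk1 was about 12.1-fold higher in striatum than in frontal cortex. Delta receptor RNA (Oprd1, 1.35-fold) and mu receptor RNA (Oprm1, 2.92-fold) were also higher in striatum, while nociceptin receptor RNA (Oprl1, 1.80-fold) and the nociceptin precursor (Pnoc, 2.55-fold) were higher in frontal cortex. All 5 passed the test between regions over both genotypes. That count is to be read against a background in which 77.5% of the 14909 genes tested passed, or 41.3% of all 36013 genes with a count, the fit in which Oprm1 was tested because it lay under the minimum mean of 1 CPM. All 5 also passed within wild-type mice, where 67.5% of filtered genes and 32.4% of all genes with a count passed, and within Igf2enh-/- mice, where 68.9% and 33.8% did. In bulk tissue, fewer cells that express a gene and less RNA per cell cannot be told apart.

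**Figure D1:**
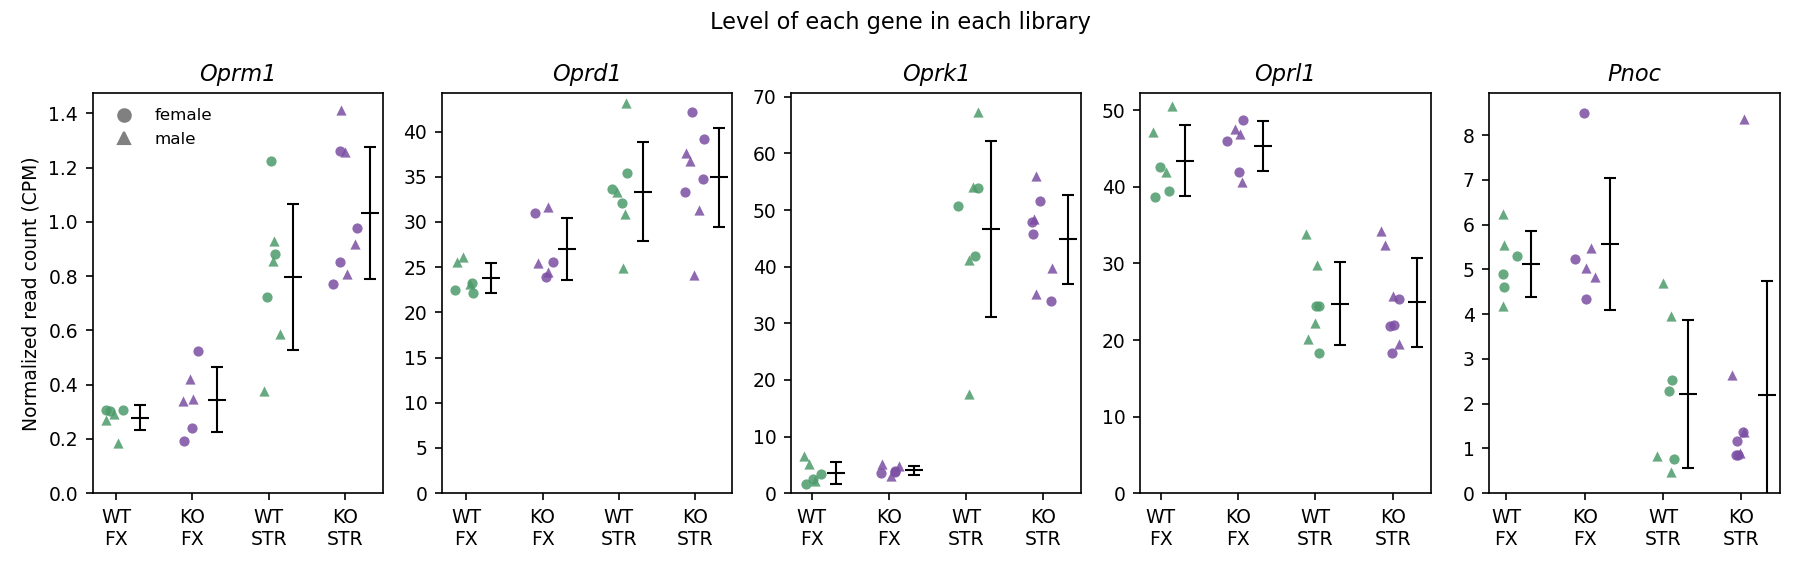
Level of each gene (TMM-normalized CPM, linear axes from 0) in each library by genotype and region (WT, wild-type; KO, Igf2enh-/-; FX, frontal cortex; STR, striatum); circles are females, triangles males, and bars show mean and SD (n = 6, 6, 7 and 8). Oprk1 and Oprl1 ranges did not overlap between regions, and wild-type and Igf2enh-/- points overlapped in every panel; the lower SD bar of Pnoc in Igf2enh-/- striatum runs below 0 and is not drawn there.

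Oprk1 ranged from 1.63 to 6.56 CPM in wild-type frontal cortex (median 2.92) and from 3.06 to 5.17 CPM in Igf2enh-/- frontal cortex (median 3.84). In striatum it ranged from 17.5 to 67.3 CPM in wild-type (median 50.8) and from 34.0 to 55.9 CPM in Igf2enh-/- libraries (median 46.8). Every striatum library, including the 4 with the lowest medium spiny neuron sums, lay above every cortical one. The lowest striatum value, 17.5 CPM, was that of library 20, which also had the lowest medium spiny neuron sum (4597 CPM). The log2 fold change, striatum over frontal cortex, was 3.60 (SE 0.194, adjusted p = 1.39e-14), with 3.72 in wild-type and 3.47 in Igf2enh-/- mice. Without libraries 19, 20, 23 and 26 it was 3.75.

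Oprl1 showed the opposite pattern. It ranged from 38.7 to 50.6 CPM in wild-type frontal cortex (median 42.3) and from 40.7 to 48.8 CPM in Igf2enh-/- frontal cortex (median 46.5). Striatum values were 18.4 to 33.8 CPM in wild-type (median 24.4) and 18.3 to 34.3 CPM in Igf2enh-/- libraries (median 23.7). All 15 striatum libraries lay below all 12 cortical ones, so that 2 of the 5 genes, Oprk1 and Oprl1, had ranges that did not overlap between regions; 26.3% of the 14909 genes did. The log2 fold change was -0.85 (SE 0.0854, adjusted p = 1.49e-09) and was -1.0 without the 4 libraries. The highest striatum values, 34.3, 33.8, 32.4 and 29.8 CPM, were those of libraries 19, 26, 23 and 20.

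Oprd1 differed least. It ranged from 22.2 to 26.1 CPM in wild-type frontal cortex (median 23.2), from 23.9 to 31.7 CPM in Igf2enh-/- frontal cortex (median 25.5), from 24.9 to 43.2 CPM in wild-type striatum (median 33.3) and from 24.2 to 42.2 CPM in Igf2enh-/- striatum (median 35.8). The regions overlapped, with 11 of 15 striatum libraries above every cortical one. The log2 fold change was 0.43 (SE 0.0768, adjusted p = 1.66e-05), and 0.53 without the 4 libraries, which gave the lowest striatum values (24.2 to 31.4 CPM, against 32.1 to 43.2 CPM in the other 11).

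Oprm1 was close to the limit of these libraries. Its raw counts were 5 to 13 per library in frontal cortex and 11 to 38 in striatum. The levels were 0.186 to 0.307 CPM in wild-type frontal cortex (median 0.298), 0.193 to 0.523 CPM in Igf2enh-/- frontal cortex (median 0.344), 0.376 to 1.22 CPM in wild-type striatum (median 0.856) and 0.770 to 1.41 CPM in Igf2enh-/- striatum (median 0.947). Wild-type library 22, at 0.376 CPM, was the single striatum library inside the cortical range. The log2 fold change was 1.55 (SE 0.176, adjusted p = 5.70e-09), and 1.53 without the 4 libraries. Ipcef1, which overlaps Oprm1 on the other strand, changed in the opposite direction (log2 fold change -2.18, SE 0.309, adjusted p = 5.46e-07).

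Pnoc is the only ligand gene of the 5. In frontal cortex it ranged from 4.18 to 6.24 CPM in wild-type (median 5.09) and from 4.34 to 8.49 CPM in Igf2enh-/- libraries (median 5.13). In striatum it ranged from 0.479 to 4.70 CPM in wild-type (median 2.29) and from 0.843 to 8.36 CPM in Igf2enh-/- libraries (median 1.26), a coefficient of variation of 95.8% over the 15 libraries against 21.3% over the 12 cortical ones. The log2 fold change was -1.35 (SE 0.325, adjusted p = 0.000544). The 4 libraries with the lowest medium spiny neuron sums held the 4 highest striatum values (8.36 CPM in library 19, 4.70 in 26, 3.96 in 20 and 2.63 in 23), and without them the log2 fold change was -2.18 (adjusted p = 6.10e-10). In Igf2enh-/- mice alone, leaving out library 19 moved it from -1.45 to -2.08. These 4 libraries also had high cortical marker sums (600 to 1174 CPM), but not without overlap. Library 16, outside the 4, had a cortical sum of 834 CPM and Pnoc at 2.53 CPM. The part of tissue composition in the Pnoc values was not tested.

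**Figure D2:**
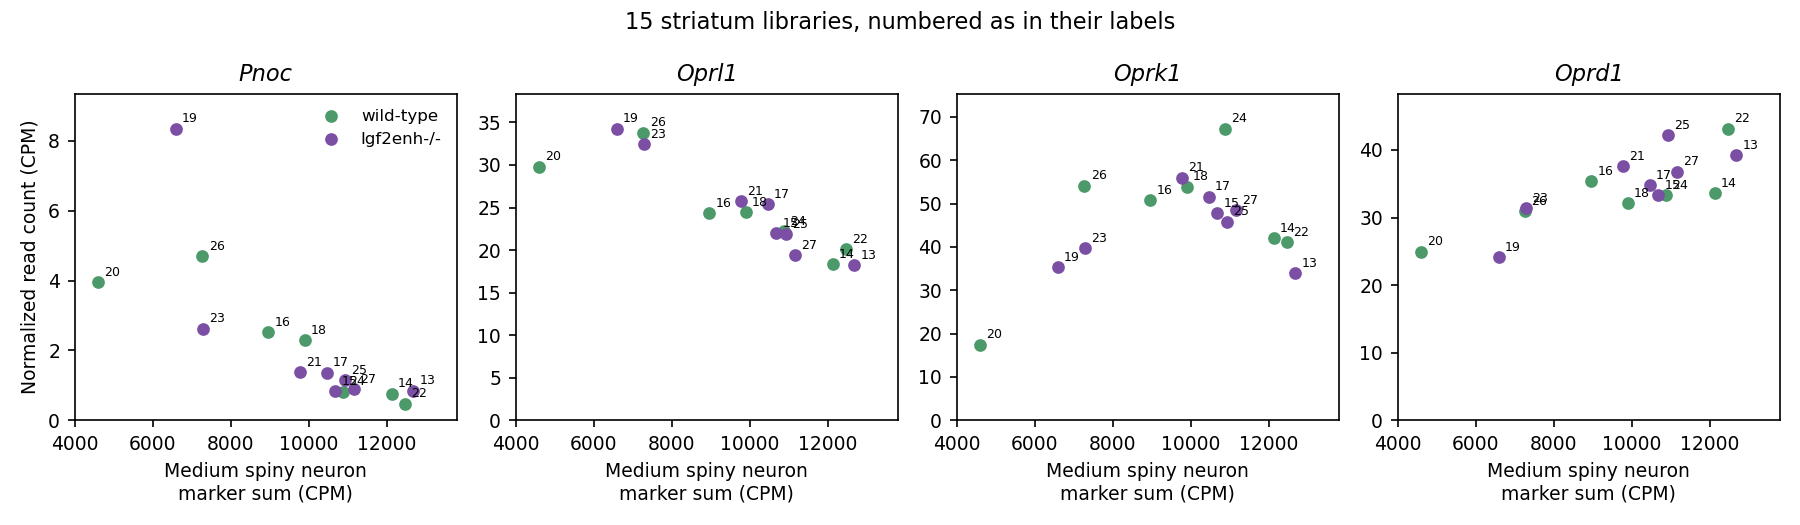
CPM of Pnoc, Oprl1, Oprk1 and Oprd1 (y axes from 0) against the summed CPM of 10 medium spiny neuron markers (x axis) in the 15 striatum libraries, numbered as in their labels; green points are wild-type and purple points Igf2enh-/- libraries. Libraries 19, 20, 23 and 26, at 4597 to 7287 CPM on the x axis, held the 4 highest Pnoc and Oprl1 values and the 4 lowest Oprd1 values.

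Levels of different genes were compared per kilobase of exon, using exon lengths of the older vM1 annotation. In frontal cortex the order was Oprl1, at 11.8 ± 1.05 CPM per kb (SD, n = 12), then Oprd1 at 6.32 ± 0.763, Pnoc at 2.82 ± 0.600, Oprk1 at 0.554 ± 0.207 and Oprm1 at 0.0381 ± 0.0114. No neighbours in that order overlapped. In striatum Oprd1 was at 8.50 ± 1.33 CPM per kb (SD, n = 15), Oprk1 at 6.68 ± 1.70, Oprl1 at 6.62 ± 1.45, Pnoc at 1.16 ± 1.11 and Oprm1 at 0.113 ± 0.0337. The first 3 overlapped and could not be ranked: with the length of the longest transcript in place of all exons, Oprk1 came first at 9.77 CPM per kb, ahead of Oprd1 at 8.50 and Oprl1 at 8.00. Without libraries 19, 20, 23 and 26 the striatum levels were 9.08 for Oprd1, 7.16 for Oprk1, 5.87 for Oprl1, 0.642 for Pnoc and 0.112 for Oprm1. Pnoc and Oprm1 kept the last 2 places on both scales.

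**Figure D3:**
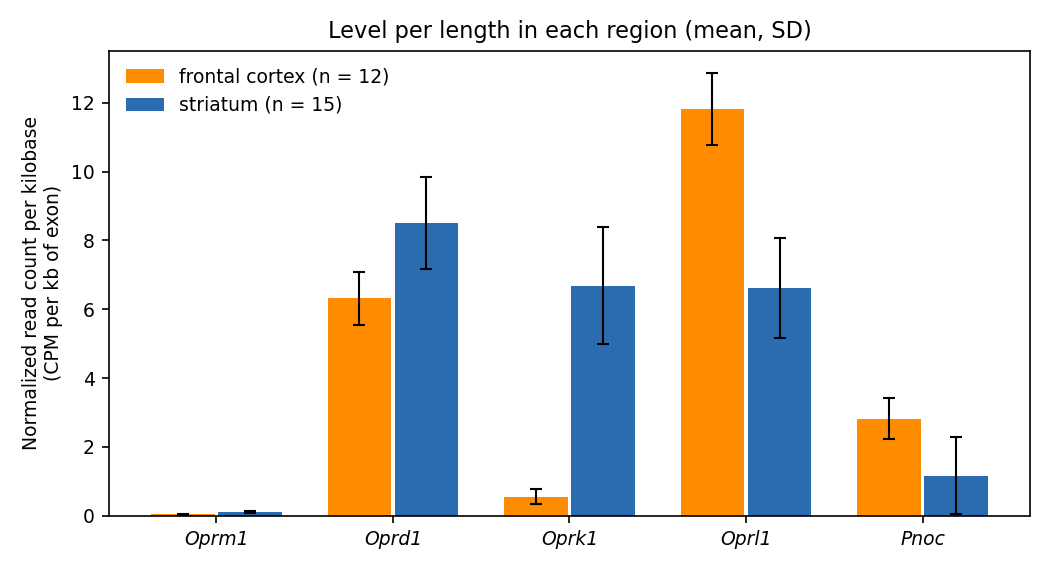
Mean level per kilobase of exon (CPM per kb) in frontal cortex (orange, n = 12) and striatum (blue, n = 15), with SD bars. Oprl1 stood highest in frontal cortex at 11.8, while Oprd1, Oprk1 and Oprl1 lay between 6.62 and 8.50 in striatum.

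The makeup of the receptor RNA was described by the share of each gene in the sum of the 4 receptors. Oprl1 held the largest share in frontal cortex, and Oprl1, Oprd1 and Oprk1 each held at least 30.1% on average in striatum. Oprl1 made up 63.2% ± 2.00 of the per-kilobase receptor level in frontal cortex and 30.5% ± 7.64 in striatum. Oprk1 made up 2.92% ± 0.964 and 30.1% ± 5.84, and Oprd1 33.7% ± 2.36 and 38.9% ± 5.86. The 4 striatum libraries with the lowest medium spiny neuron sums had another makeup: Oprl1 was at 36.4 to 47.3% in them and at 24.0 to 29.3% in the other 11, without overlap. Without these 4, the striatum shares were 41.1% ± 5.08 for Oprd1, 32.1% ± 4.11 for Oprk1 and 26.4% ± 2.08 for Oprl1 (SD, n = 11). Oprm1 was at 0.206% ± 0.0621 and 0.516% ± 0.151 on the exon scale, and at 1.26% ± 0.366 in striatum with the length of the longest transcript. The sum of the 4 was 18.7 ± 1.71 CPM per kb in frontal cortex and 21.9 ± 2.14 in striatum, with overlapping ranges (16.4 to 21.3 and 16.8 to 24.7). Shares of a whole are not independent of each other and were not tested.

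The second question was whether loss of the enhancer changed these genes. None of the 5 passed the test for genotype in either region, by the edgeR quasi-likelihood test, the likelihood ratio test or DESeq2, and wild-type and Igf2enh-/- ranges overlapped for all 5 in both regions. Over all filtered genes 0.38% passed in frontal cortex and 0.036% in striatum, and over all genes with a count 1.39% and 0.0293%. The gene with the lowest unadjusted p was Oprd1 in frontal cortex, where the mean was 23.8 ± 1.66 CPM in wild-type and 27.0 ± 3.42 CPM in Igf2enh-/- libraries (SD, n = 6 each). Its log2 fold change was 0.19 (SE 0.0741, 95% interval 0.040 to 0.33, unadjusted p = 0.0250, adjusted p = 0.290), and 2 of 6 Igf2enh-/- libraries lay above every wild-type one. It was the 1 value of the 10 under an unadjusted p of 0.05. So were 13.5% of filtered genes in frontal cortex and 10.0% in striatum (8.92% and 5.86% of all genes with a count). An exact permutation test, two-sided, gave p = 0.0563 for the same comparison (0.474 after adjustment over 10 tests).

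For the other genes the intervals show roughly which sizes of change remain possible at this depth and number of mice. In frontal cortex the log2 fold change, Igf2enh-/- over wild-type, was 0.062 for Oprl1 (95% interval -0.061 to 0.18), 0.11 for Pnoc (-0.18 to 0.41), 0.21 for Oprk1 (-0.27 to 0.69) and 0.31 for Oprm1 (-0.33 to 0.94). In striatum it was 0.055 for Oprd1 (-0.17 to 0.28), 0.029 for Oprl1 (-0.24 to 0.30), -0.061 for Oprk1 (-0.47 to 0.35), 0.37 for Oprm1 (-0.052 to 0.80) and -0.11 for Pnoc (-1.07 to 0.85). The adjusted p was at least 0.711 for each of these 9 values. The interval of Pnoc in striatum was the widest of the 10, and without the 4 libraries its log2 fold change was -0.30 (adjusted p = 0.803). The difference of the region effect between genotypes was tested directly and did not pass for any of the 5 genes (log2 -0.24 to 0.057, lowest unadjusted p 0.434, adjusted p at least 0.999). Of the 14909 genes 0% passed this test, with 433 at an unadjusted p under 0.05.

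**Figure D4:**
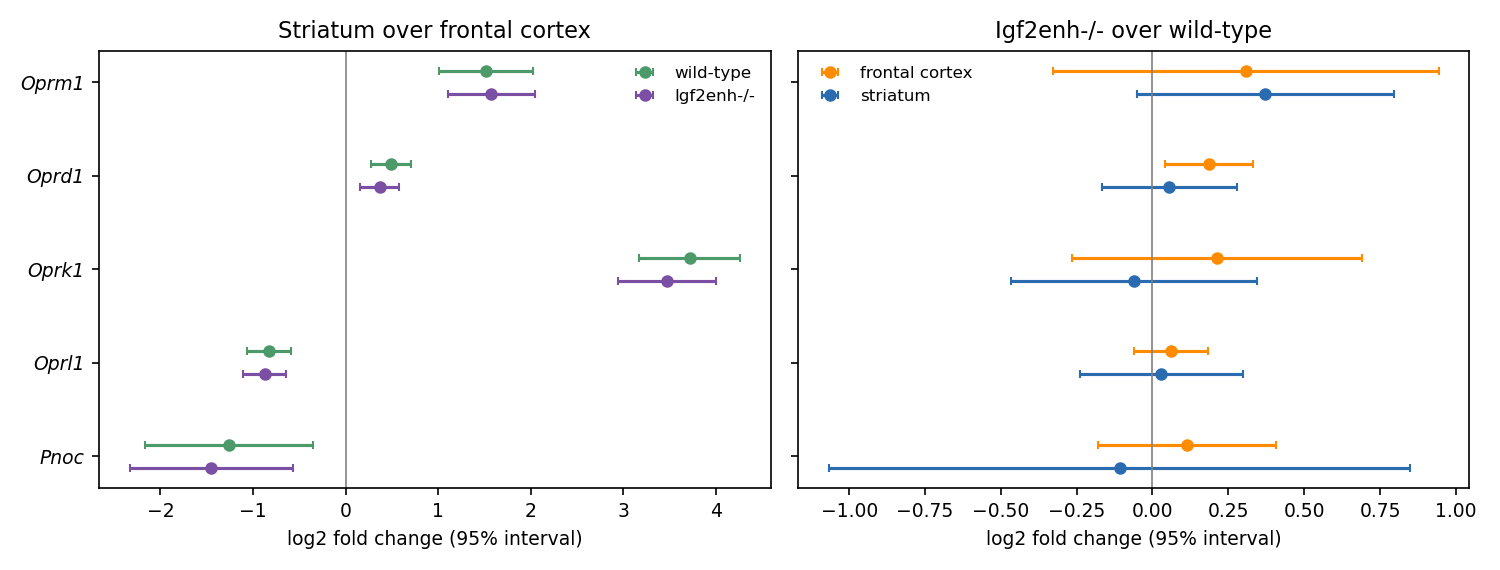
Log2 fold change with 95% interval for each gene, left for striatum over frontal cortex in wild-type (green) and Igf2enh-/- mice (purple), right for Igf2enh-/- over wild-type in frontal cortex (orange) and striatum (blue); the 2 panels have different axes. The regional differences run from -1.45 to 3.72 with intervals clear of 0, and the genotype differences from -0.11 to 0.37 with all intervals but that of Oprd1 in frontal cortex crossing 0.

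Sex was compared in the same fits, males over females. None of the 5 genes passed, against 0.0431% of filtered genes in frontal cortex and 0.0432% in striatum (0.56% and 0.041% of all genes with a count). Of the 10 values, 3 had an unadjusted p under 0.05. So did 7.56% of filtered genes in frontal cortex and 10.8% in striatum (6.37% and 6.99% of all genes with a count). Oprk1 in frontal cortex averaged 3.12 ± 0.900 CPM in females and 4.46 ± 1.59 CPM in males (log2 0.53, SE 0.245, unadjusted p = 0.0465, adjusted p = 0.656). In striatum Oprl1 averaged 22.1 ± 2.89 and 27.2 ± 6.16 CPM (log2 0.30, unadjusted p = 0.0429, adjusted p = 0.461) and Pnoc 1.40 ± 0.725 and 2.90 ± 2.69 CPM (log2 1.06, unadjusted p = 0.0473, adjusted p = 0.689). The 4 libraries with the lowest medium spiny neuron sums were all male and held the 4 highest striatum values of Oprl1 and of Pnoc. Leaving them out thus takes away only high male values of these 2 genes. Without them the striatum log2 values were -0.013 for Oprl1 and -0.62 for Pnoc. The part of tissue composition in the sex differences was not tested. The genotype effect did not differ between sexes by test for any of the 5 genes (adjusted p at least 0.763 in frontal cortex, where 0.0215% of filtered genes and 0.938% of all genes with a count passed, and at least 0.9998 in striatum, where 0% passed); the lowest unadjusted p was 0.0715, for Oprl1 in frontal cortex.

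How the genes varied together from library to library was described within frontal cortex (12 libraries) and within 11 striatum libraries. The 4 above were left out because they had the lowest medium spiny neuron sums. Genotypes and sexes were pooled, and their means were not subtracted, so a difference shared by 2 genes can enter their correlation. Of 20 relations, none passed the Benjamini-Hochberg adjustment. Oprk1 and Oprl1 had the highest correlation in frontal cortex, with Pearson r = 0.67 (permutation p = 0.0181, adjusted 0.121) and Spearman rho = 0.69 (permutation p = 0.0152, adjusted 0.108). In the 11 striatum libraries the same pair had r = 0.70 (permutation p = 0.0143, adjusted 0.121) and rho = 0.83 (permutation p = 0.00302, adjusted 0.0604), and r was 0.76 and 0.86 without the 2 libraries farthest from the median of Oprk1. Oprl1 and Pnoc, the receptor and its ligand, had r = 0.71 in those striatum libraries (permutation p = 0.0145, adjusted 0.121) and rho = 0.65 (permutation p = 0.0338, adjusted 0.169), with r = 0.73 without the 2 farthest, and in frontal cortex r = -0.14 (permutation p = 0.694) and rho = 0.063 (permutation p = 0.849).

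Across all 27 libraries, after the mean of each region had been subtracted, the genes most like each member were sought among 14273 genes with at least 1 CPM in both regions. Pnoc was most like Tox2 (r = 0.96), Rhof (0.93) and Pnma3 (0.93). Oprl1 was most like Slc8a1 (0.91), Disp2 (0.91) and Sez6l (0.90). Oprd1 was like Asic1 (0.85) and Itga9 (0.82), and Oprk1 was most like Exoc6 (0.81), Foxp2 (0.79) and Pcdh10 (0.79). Oprm1 had the lowest values, with ENSMUSG00000099696 (0.78) and ENSMUSG00000108228 (0.77), which had no symbol in the tables used, and Evpl (0.74). These values share library and tissue composition, and some differed between the regions: within frontal cortex and within striatum, Pnoc with Tox2 had r = 0.74 and 0.97, Pnoc with Rhof 0.44 and 0.96, and Oprl1 with Slc8a1 0.54 and 0.96.

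The other genes of the pathway were taken from lists by role. Counts below are of genes that passed between regions, where 38.9% of all genes were higher and 38.5% lower in striatum with a median log2 fold change of 0.0053. Among 4 precursors, Penk, the enkephalin precursor, was higher in striatum by 5.21 on the log2 scale and Pdyn, the dynorphin precursor, by 1.23 (SE 0.155 and 0.0902). Pnoc was lower, and Pomc, the precursor of beta-endorphin, did not pass at 0.23 (adjusted p = 0.197). All 6 genes of the precursor processing list were lower in striatum (median -0.24), including the convertases Pcsk1 (-1.52) and Pcsk2 (-0.55) and the protease Ctsl (-0.32). That list is not limited to enzymes that cut precursors, since it also holds Pcsk1n and Scg5. Of 7 genes for breaking peptides down, 5 were higher and 2 lower (median 0.21): Mme, or neprilysin, was higher by 3.51, Ace by 1.51 and Ece2 by 0.65, while Anpep was at -0.91. Penk is also on the medium spiny neuron list, all 10 genes of which were higher in striatum.

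Downstream of the receptors, the channels went one way. All 5 tested of 6 effector channel genes were lower in striatum (median -1.63): the inwardly rectifying potassium channel genes Kcnj6, Kcnj3 and Kcnj9 were at -2.71, -2.14 and -1.63 (SE 0.288, 0.222 and 0.162), and the calcium channel genes Cacna1a and Cacna1b at -0.42 and -0.41. Of 5 inhibitory alpha subunits 1 was higher (Gnao1, 0.31), 2 were lower (Gnai1, -0.72, and Gnaz, -0.65) and 2 did not pass. Of 7 regulators of G protein signalling, which speed up the shut-off of alpha subunits, 4 were higher and 3 lower, with Rgs9 at 6.84, Rgs20 at 0.90 and Rgs7 at -0.87. Of 6 receptor kinases and arrestins, which silence active receptors, 1 was higher and 5 were lower, among them Grk3 (-1.01), Grk2 (-1.0) and Grk6 (-0.17). Of 7 adenylyl cyclases, the enzymes that make cyclic AMP, 2 were higher and 5 lower: Adcy5 was at 3.49, Adcy2 at -1.77 and Adcy1 at -1.26. Rgs9 and Adcy5 are on the medium spiny neuron list too. No gene of these lists passed for genotype in either region.

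**Figure D5:**
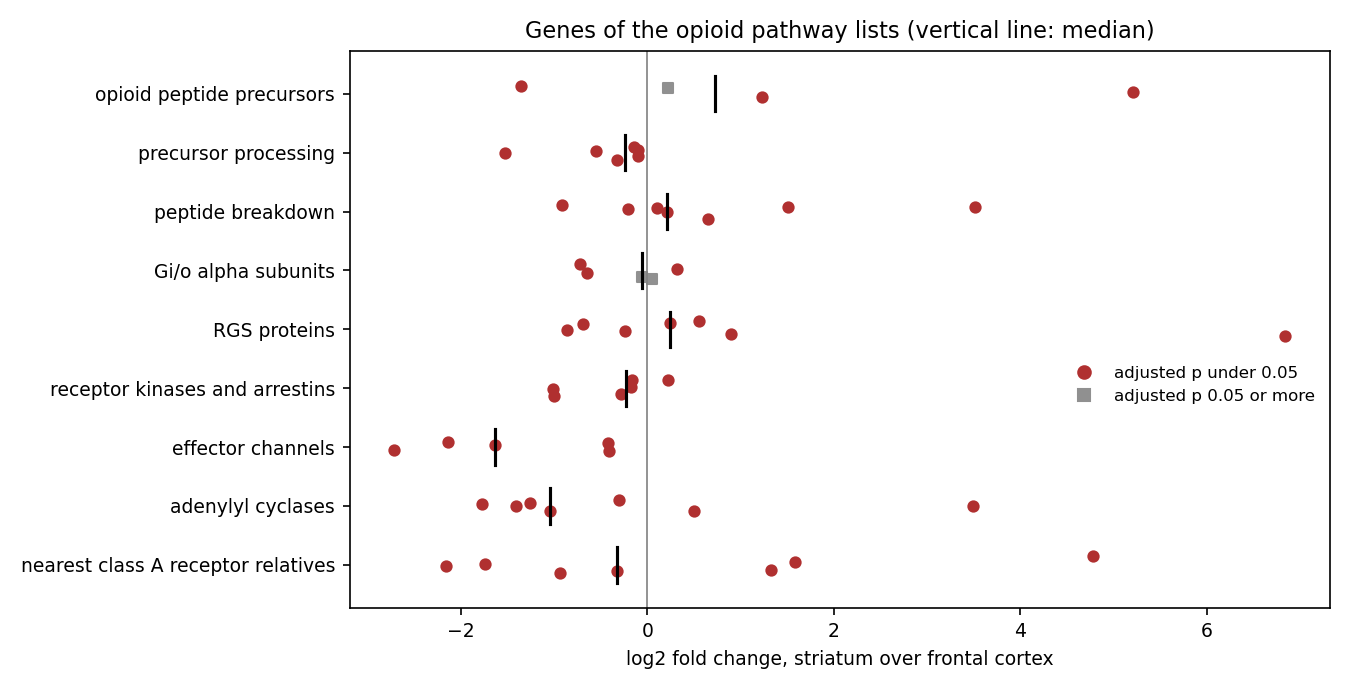
Log2 fold change, striatum over frontal cortex, of each tested gene of the pathway lists; red circles passed at an adjusted p under 0.05, gray squares did not, and black lines mark each list's median. Effector channels sit to the left of 0 throughout (median -1.63), while peptide precursors and regulators of G protein signalling spread to both sides, with Penk at 5.21 and Rgs9 at 6.84.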

How the data were processed

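Gene counts came from 27 mouse brain libraries of 75-base single-end reads. The authors deposited raw counts per gene, made by trimming (Trim Galore 0.5.0) and STAR alignment to GRCm38 per the labels. How strand was treated in counting is not given in the sources used here. Of 52636 identifiers 32688 matched a symbol, and 0 columns belonged to another series. Counts were tested with edgeR 4.0.16 (quasi-likelihood F-test, TMM, Benjamini-Hochberg over all genes tested, adjusted p under 0.05), with genotype and sex terms per region and with region, genotype and sex over all libraries. Genes needed 1 CPM in every library of a region, or a mean of 1 CPM over the 27; Oprm1, and Pnoc within striatum, fell under this and were tested in a fit of every gene with at least 1 count. Intervals of 95% are 1.96 standard errors wide on each side. That is a normal quantile, so they are approximate and can be narrower than the F-test implies. Permutation tests used log2(CPM + 0.5). In simulated counts the fits found 99.5% (frontal cortex), 95.5% (striatum) and 99% (regions) of 200 genes changed by a log2 of 1, with 21, 9 and 9 false calls. Only genes that passed the filter were simulated, so these rates do not cover Oprm1, or Pnoc within striatum. No simulated library differed in tissue composition, so the rates do not give the power of the tests on the real libraries. Alternatives were the likelihood ratio test, DESeq2 1.42.0, other scalings and filters, no sex term and leaving libraries out. Nothing ties libraries to litters, so p-values measure the spread between these libraries. Genes, lists and tests were chosen with earlier results of these data known. List genes named were the 3 of smallest p between regions, plus Anpep, Kcnj6, Cacna1a and Sstr3, named after their values were seen; 1 gene among those most like a member is not reported here.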

Additional observations from a re-analysis of the deposited data

Results flagged for a closer look

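Each of the 5 genes was checked in each of the 4 groups for a library far from the others, by the gap to its nearest neighbour as a share of the group's whole range; chance alone flags about 1 in 20 groups, and 3 of 20 were flagged. Pnoc in Igf2enh-/- striatum was highest in library 19, at 8.36 CPM against 2.63 CPM in the next library, a gap of 0.762 of the range; that library had a medium spiny neuron marker sum of 6591 CPM and a cortical projection neuron sum of 600 CPM. Pnoc in Igf2enh-/- frontal cortex was highest in library 1, at 8.49 CPM against 5.48 CPM in the next, a gap of 0.726 of the range; the same library had the lowest medium spiny neuron (346 CPM), cortical (2322 CPM) and oligodendrocyte (937 CPM) marker sums in that region and the highest GABAergic interneuron sum (672 CPM). Oprm1 in wild-type frontal cortex was lowest in library 8, at 0.186 CPM against 0.271 CPM in the next, a gap of 0.704 of the range, which rests on 5 counts.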

How the results depend on the processing

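Over 50 results for single genes, 1261 of 1300 alternative values kept their direction and their side of the threshold, and 39 changed sign, none of them past the threshold before or after. All 5 regional differences kept direction and call under every alternative in which the gene was tested; a minimum of 1 CPM in all 27 libraries left 3 of the 5 to test. Without libraries 19, 20, 23 and 26 together the level of Pnoc in striatum was 0.642 CPM per kb, against 1.16 with them. In the same setting, which leaves out males only, the sex differences in striatum changed sign to 0.086 for Oprd1, 0.19 for Oprk1, -0.013 for Oprl1 and -0.62 for Pnoc. Over all striatum libraries (8 Igf2enh-/- and 7 wild-type), the permutation test put the genotype difference of Oprk1 at 0.017, also a change of sign. Leaving out 1 library at a time, the genotype difference ranged from -0.051 to 0.19 for Pnoc in frontal cortex, and in striatum from -0.20 to 0.063 for Oprk1, -0.036 to 0.096 for Oprl1 and -0.70 to 0.091 for Pnoc. The difference of the region effect between genotypes ranged from -0.070 to 0.21 for Oprm1, -0.11 to 0.031 for Oprl1 and -0.86 to 0.087 for Pnoc. The sex difference ranged from -0.16 to 0.18 for Oprm1 and -0.14 to 0.0997 for Pnoc in frontal cortex, and from -0.19 to 0.032 for Oprm1 and -0.16 to 0.063 for Oprk1 in striatum. The genotype by sex term ranged from -0.24 to 0.00068 for Oprd1 in frontal cortex, and from -0.16 to 0.37 for Oprk1 and -0.0055 to 0.25 for Oprl1 in striatum. With the length of the longest transcript, levels per kilobase were 0.113 for Oprm1, 0.811 for Oprk1 and 14.3 for Oprl1 in frontal cortex and 0.335 for Oprm1 and 9.77 for Oprk1 in striatum, since the longest transcripts of these genes are shorter than their joined exons.

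Counts over all genes depended more on the tool. For genotype in frontal cortex 53 genes passed, against 232 by the likelihood ratio test, 242 by DESeq2, 459 with no filter and 8 to 101 with 1 library left out; in striatum 5 passed, against 56, 112, 10 and 3 to 8, and 3 without the sex term. For sex, 6 genes passed in frontal cortex, against 28, 21 and 185 with no filter, and 6 in striatum, against 12, 16, 14 with no filter and 1 without the 4 libraries. For genotype by sex, 3 genes passed in frontal cortex, against 12, 8 and 310 with no filter, and none in striatum, against 1, 2 and, without the 4 libraries, 2. The cause was not tested. Oprm1 rested on 5 to 13 counts a library in frontal cortex, where the interval of its genotype difference was -0.33 to 0.94. No paired analysis was possible because each library has its own number, so no number is shared between groups.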

Other observations

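The receptors nearest to the opioid family in sequence are those for somatostatin, neuropeptide B and W, and melanin-concentrating hormone. Of their 7 genes 3 were higher in striatum and 4 lower (median log2 fold change -0.32). Over all 14909 genes tested 38.9% were higher and 38.5% lower. Sstr5 was higher in striatum by 4.78 (SE 0.174), a larger value than that of any opioid receptor gene, and Npbwr1 by 1.59 and Mchr1 by 1.33, while Sstr4 was lower, at -0.94, and Sstr3, named for its size, at -2.16. Npbwr1 is also the annotated neighbour of Oprk1 on chromosome 1, 307572 bases away.

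Of the 12 genes that overlap or flank the 5, 8 were in the count tables and 5 were tested between regions. Epb41, next to Oprd1, was higher in striatum by 1.23 (SE 0.0641, adjusted p = 6.95e-15) and Cnksr3, next to Oprm1, by 0.69 (SE 0.0758, adjusted p = 7.75e-09). Zfp395, 1742 bases from Pnoc, was at -0.015 (SE 0.0732, adjusted p = 0.854), and none of the neighbours tested passed for genotype. All adjusted p-values here are from the edgeR quasi-likelihood test.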
